A study of Mus musculus with 11 samples.

Results

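The set held 10 genes that are read mainly in the cells lining blood vessels: Kdr, Flt1 and Flt4, the receptors of the vascular endothelial growth factors (VEGFs); Tek, Tie1 and Ptprb, 2 receptors and a phosphatase of the angiopoietin pathway; and Cdh5, Cd93, Eltd1 and Vwf, which mark endothelial identity. Each was taken from the deposited table by its symbol, 10 of 16228 genes, and all 10 passed the filter on low values. The genes were chosen by their measured differences as well as by their roles: the set was put together knowing which endothelial genes stood apart between the knockouts and that Kdr and Flt1 were lower in Prkcz knockouts than in controls. In these 2 comparisons the values, calls and p-values of the set are therefore a description and no independent test.

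RNA of cerebral cortex at postnatal day 30 (P30) was sequenced in 11 untreated mice, 1 punch of tissue each. Controls made up 4 libraries, and their labels read Pkcz f/+ for 2 and Pkcz f/f for the other 2 and name no Cre. The Prkci knockouts were 4 animals of the genotype Ng2 Cre+ Prkci f/f, and the Prkcz knockouts were 3 animals of the genotype Ng2-Cre+ Prkcz f/f. The series text gives the question as the part that the atypical protein kinase C paralogs play in oligodendrocyte lineage development. Here a floxed allele is written f, and Ng2-Cre drives the recombinase from the promoter of Cspg4 (NG2), a proteoglycan of oligodendrocyte precursors that pericytes of the vessel wall also carry. In which cells recombination took place was not measured. No library has Cre without a floxed allele, and no control comes from a Prkci line by its label, so kinase, Cre and line cannot be told apart.

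Endothelial cells meet VEGF through receptor tyrosine kinases at their surface. Kdr carries most of the growth and permeability signal, Flt1 binds VEGF tightly and largely acts as a decoy, and Flt4 binds VEGF-C and VEGF-D and is best known from lymphatic vessels. Tek (Tie2) binds the angiopoietins and keeps vessels quiet, with Tie1 as its partner and Ptprb (VE-PTP) as the phosphatase that restrains it. In the brain these cells form the blood-brain barrier, wrapped by pericytes and astrocyte endfeet. In whole tissue, fewer endothelial cells and less RNA per endothelial cell cannot be told apart.

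Values were normalised expression per gene and library, on a scale that sums to 1021767 to 1082562 per library. The effective depth estimated from the steps between low values was 14740000 to 28170000 reads, and the lowest belonged to Prkcz replicate 3. Prkci itself was at 87.8 ± 2.52 (SD, n = 4) in controls, 67.0 ± 1.47 (n = 4) in Prkci knockouts and 86.1 ± 4.79 (n = 3) in Prkcz knockouts. Prkcz was at 323 ± 20.2, 314 ± 6.93 and 278 ± 15.1 in the same order. Each targeted gene was thus lowest in its own knockout, with no overlap with controls. Differences are log2 differences of value + 0.5 from one limma fit over all 11 libraries and 14330 genes, with the standard error (SE), and a gene is called where the adjusted p (Benjamini-Hochberg over all genes) is below 0.05.

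All 10 genes were higher in every Prkci knockout than in every Prkcz knockout, with ratios of the group means from 1.19 (Tek) to 1.91 (Kdr). Controls lay between the knockouts in the mean of each gene. Levels differed widely between members when divided by exon length: in controls, Eltd1 was at 4.20 ± 0.711 per kilobase of exon (SD, n = 4), Cdh5 at 4.10 ± 0.334, Ptprb at 3.83 ± 0.375 and Tek at 3.81 ± 0.193. These 4 overlapped with their neighbours in the order. Flt1 followed at 3.04 ± 0.234 per kilobase, below all values of Tek. Then came Cd93 (2.67 ± 0.271), Kdr (2.41 ± 0.218) and Tie1 (2.04 ± 0.206), and from Flt1 to Tie1 each gene overlapped with the one before it. Vwf at 1.14 ± 0.213 and Flt4 at 0.492 ± 0.0329 per kilobase stood apart from their neighbours as the lowest of the set.

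**Figure D1:**
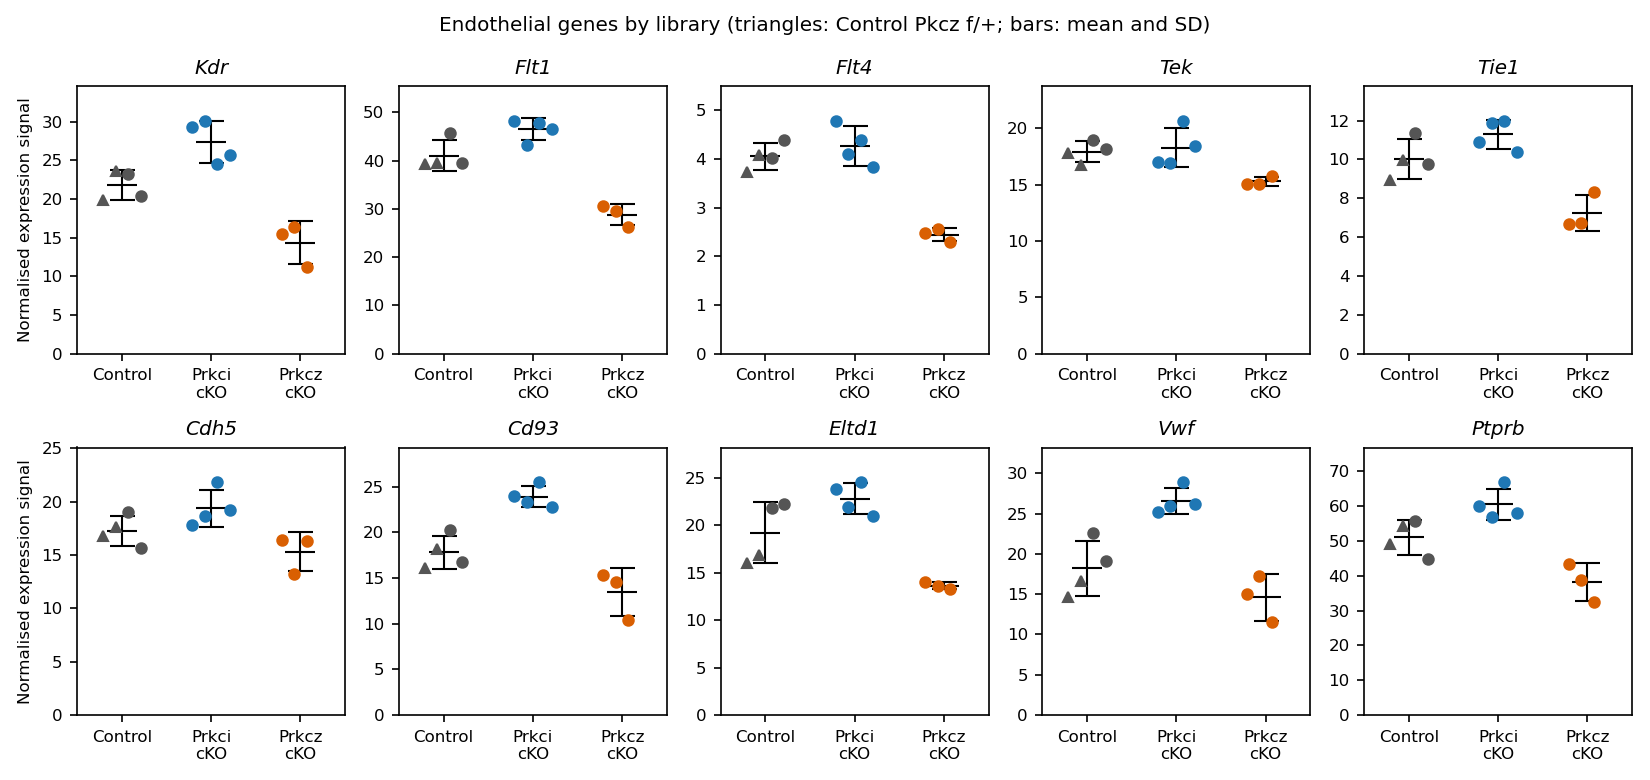
Normalised expression of the 10 genes in each library, 1 panel per gene; points are libraries of controls (n = 4), Prkci knockouts (n = 4) and Prkcz knockouts (n = 3), bars are the group mean and SD, and triangles mark the Pkcz f/+ controls. In every panel all Prkci knockouts lie above all Prkcz knockouts, with the largest ratio of group means for Kdr (1.91) and the smallest for Tek (1.19).

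Kdr (VEGFR2, chr5:75932827-75978458 on the minus strand, GRCm38) was the member that differed most between the knockouts. Its values were 19.82, 23.66, 23.27 and 20.36 in control replicates 1 to 4. They were 29.28, 30.08, 24.45 and 25.70 in the Prkci knockouts and 15.47, 16.33 and 11.24 in the Prkcz knockouts. The 3 groups did not overlap, with Prkcz replicate 3 the lowest and Prkci replicates 1 and 2 the highest. The log2 difference between Prkci and Prkcz knockouts was 0.92 (SE 0.119). Against controls, Prkcz knockouts were 34.1% lower in the mean (log2 difference -0.60).

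Flt1 (VEGFR1, chr5:147561604-147726011, minus strand) had the highest level per kilobase of the 3 VEGF receptors in controls. It measured 39.29, 39.60, 45.77 and 39.50 in controls, and 48.24, 43.19, 47.80 and 46.64 in Prkci knockouts. The Prkcz knockouts gave 30.50, 29.53 and 26.28. All Prkcz knockouts were below all other libraries, whereas control replicate 3 lay within the range of the Prkci knockouts. Between the knockouts the log2 difference was 0.68, with the smallest error of the set (SE 0.0711). Against controls, Prkcz knockouts were 29.9% lower (log2 difference -0.50).

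Flt4 (VEGFR3, chr11:49609263-49652739, plus strand) was scarce, with about 34 to 115 reads per library by the estimated depth. It was at 3.72, 4.08, 4.02 and 4.38 in controls, 4.78, 4.09, 4.38 and 3.83 in Prkci knockouts, and 2.47, 2.56 and 2.30 in Prkcz knockouts. Controls and Prkci knockouts overlapped in part, with 1 control below and 1 Prkci knockout above all of the other group, and the Prkcz knockouts stood below both. Against controls they were 39.7% lower in the mean (log2 difference -0.63), the largest drop of the set. From Prkcz to Prkci knockouts the log2 difference was 0.69 (SE 0.107).

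The ratio of Kdr to Flt1 within a library, the signalling receptor over the decoy, was computed after the values had been seen and has no test. It was 0.531 ± 0.0443 (SD, n = 4) in controls, 0.591 ± 0.0802 (n = 4) in Prkci knockouts and 0.496 ± 0.0634 (n = 3) in Prkcz knockouts. The ranges overlapped, so no shift in the balance of these 2 receptors was larger than the spread between animals. Kdr over Tek was 1.22 ± 0.138, 1.52 ± 0.279 and 0.941 ± 0.200 in the same order, and here the Prkcz knockouts (0.712 to 1.09) lay below all controls (1.11 to 1.41). For Kdr over Cdh5 they did not: Prkcz knockouts (0.691 to 1.24) overlapped with controls (1.18 to 1.34).

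Promoter sequences are shown for Kdr and Flt1, the VEGF receptors with the most reads, and for Tek, the member with the smallest difference. They come from RefSeq (GRCm38.p6), which matched 6 of the 10 members, and cover bases upstream of the annotated gene: chr5:75978459-75978705 on the minus strand for Kdr, chr5:147726012-147726261 on the minus strand for Flt1 and chr4:94739039-94739288 on the plus strand for Tek. Capitals mark AGGAAG, letters that ETS transcription factors of endothelial cells can bind, searched on both strands.
Kdr: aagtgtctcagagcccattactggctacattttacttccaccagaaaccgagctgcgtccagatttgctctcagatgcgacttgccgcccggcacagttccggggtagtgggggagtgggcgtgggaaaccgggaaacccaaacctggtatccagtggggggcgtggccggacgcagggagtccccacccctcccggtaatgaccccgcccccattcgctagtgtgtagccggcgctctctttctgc
Flt1: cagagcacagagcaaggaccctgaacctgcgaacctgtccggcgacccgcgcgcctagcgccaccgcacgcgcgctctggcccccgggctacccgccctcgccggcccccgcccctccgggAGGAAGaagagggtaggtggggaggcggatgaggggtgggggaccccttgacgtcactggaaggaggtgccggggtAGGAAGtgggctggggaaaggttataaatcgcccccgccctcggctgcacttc
Tek: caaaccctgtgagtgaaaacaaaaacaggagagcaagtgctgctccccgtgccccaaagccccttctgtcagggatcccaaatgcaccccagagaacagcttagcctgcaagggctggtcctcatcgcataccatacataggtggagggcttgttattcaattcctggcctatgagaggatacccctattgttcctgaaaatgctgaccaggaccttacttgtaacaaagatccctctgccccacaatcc
Flt1 held AGGAAG 2 times, 129 and 53 bases before its start, and Kdr and Tek held none. GGGCGG, the GC box, was found 2 times in Kdr, 3 times in Flt1 and not in Tek; TATAAA was found in Flt1 alone of the 3. Over the 250 bases before the start, 3 of the 6 matched members held AGGAAG and 3 held GGGCGG, against 29.5% and 32.7% of 32851 promoters, while TATAAA was in 1 of 6 against 12.4%. A match is a description of the letters and not a measured binding site.

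Among the genes of the angiopoietin pathway, Tek differed least between the knockouts and Ptprb most. Tek (chr4:94739289-94874976, plus strand) gave 17.81, 16.78, 18.97 and 18.17 in controls. It gave 17.05, 16.93, 20.67 and 18.42 in Prkci knockouts, and 15.07, 15.05 and 15.78 in Prkcz knockouts. Controls and Prkci knockouts overlapped, with Prkci replicate 3 above every control, and the Prkcz knockouts lay 14.7% below controls in the mean. Tek thus differed by 0.24 in log2 between the knockouts (SE 0.0769).

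Tie1 (chr4:118471191-118490061, minus strand), the partner of Tek, was at 8.93, 9.99, 11.37 and 9.78 in controls and at 10.90, 11.86, 11.98 and 10.40 in Prkci knockouts. In Prkcz knockouts it was at 6.68, 6.71 and 8.33. Prkcz replicate 3 was the highest of its group here, although it was the lowest of its group for Kdr and Flt1. The log2 difference between the knockouts was 0.61 (SE 0.102), and the Prkcz knockouts were 27.7% below controls.

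Ptprb (chr10:116275523-116389535, plus strand) encodes the phosphatase that restrains Tek. Its values were 49.09, 54.30, 55.78 and 44.86 in controls, 60.11, 56.96, 66.79 and 58.10 in Prkci knockouts, and 43.29, 38.80 and 32.51 in Prkcz knockouts. The 3 groups did not overlap, with the highest Prkcz value close below the lowest control. Prkci knockouts exceeded Prkcz knockouts by 0.66 on the log2 scale (SE 0.0963). The locus overlaps Gm47625 and the small nucleolar RNA gene Gm26495 on the same strand, and no source used here says how shared reads were assigned.

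The 4 identity genes also followed this order of groups. Vwf (von Willebrand factor, chr6:125546774-125686679, plus strand), a secreted clotting protein of endothelial cells and platelets, was at 14.61, 16.65, 22.55 and 19.14 in controls. It was at 25.16, 25.90, 28.87 and 26.19 in Prkci knockouts and at 15.07, 17.30 and 11.51 in Prkcz knockouts. The Prkci knockouts were above all other libraries, and Prkcz knockouts overlapped with controls. Vwf had a log2 difference of 0.85 between the knockouts (SE 0.140).

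Cd93 (chr2:148436640-148443563, minus strand), a surface protein of endothelial cell contact and migration, was at 16.15, 18.20, 20.22 and 16.77 in controls. Prkci knockouts had 23.96, 23.37, 25.49 and 22.79, and Prkcz knockouts 15.39, 14.61 and 10.43. The 3 groups were separate for Cd93 too, with a log2 difference between the knockouts of 0.82 (SE 0.115). The difference of Prkcz knockouts from controls was -0.41 in log2 and -0.24 without Prkcz replicate 3.

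Eltd1 (now Adgrl4, chr3:151437887-151545086, plus strand), an adhesion receptor of endothelial cells, was at 16.01 and 16.87 in the 2 Pkcz f/+ controls and at 21.82 and 22.27 in the Pkcz f/f controls. It was at 23.79, 21.91, 24.53 and 20.96 in Prkci knockouts and at 14.05, 13.59 and 13.28 in Prkcz knockouts. The Pkcz f/f controls thus lay among the Prkci knockouts, and the Pkcz f/+ controls between the knockout groups. The log2 difference between the knockouts was 0.72 (SE 0.108).

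Cdh5 (VE-cadherin, chr8:104101625-104144511, plus strand), the adhesion molecule of endothelial junctions, had the second smallest difference between the knockouts, after Tek. Its values were at 16.76, 17.63, 18.97 and 15.65 in controls, 17.84, 18.62, 21.79 and 19.20 in Prkci knockouts, and 16.44, 13.20 and 16.26 in Prkcz knockouts. Controls overlapped with both knockouts. The log2 difference between the knockouts was 0.33 (SE 0.0951). The antisense gene Gm29682 overlaps Cdh5, and no source used here says if counting used the strand.

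Between Prkci and Prkcz knockouts, 8 of the 10 genes were called higher (not Tek and Cdh5), where 0.237% of all genes were, and 10 of 10 did not overlap with higher values in Prkci knockouts, where 7.36% of all genes did not. The set was chosen partly on this contrast, so the counts are not read further. Its median log2 difference was 0.69, against -0.01 over all genes. Without Prkci replicate 1, 3 of the 10 were called. Without Prkci replicate 2 or without Prkcz replicate 3, 5 were.

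In Prkcz knockouts against controls, 8 of 10 genes were lower with no overlap (6.72% of all genes), the exceptions being Cdh5 and Vwf. Kdr, Flt1 and Flt4 were the 3 genes called lower, where 0.621% of all genes were called lower (again a description). The median of the set was -0.43, against -0.01 over all genes. With only 1 control genotype in the fit, the Pkcz f/f animals, the log2 differences were -0.60 for Kdr, -0.56 for Flt1, -0.68 for Flt4 and -0.67 for Eltd1, and that of Vwf went from -0.31 to -0.51. In that fit Kdr and Flt4 were no longer called (limma adjusted p = 0.121 and 0.0584), and Flt1 and Eltd1 were. Over all alternatives Flt1 kept its call in 19 of 19, Flt4 in 12 of 18 and Kdr in 9 of 19. Kdr lost its call in every fit that left out 1 control or 1 Prkcz knockout (limma adjusted p from 0.0550 to 0.109). These tallies describe how the calls depend on the fit and do not test the set. Without Prkcz replicate 3, the difference of Vwf was -0.15, and without Prkcz replicate 2 that of Cdh5 went from -0.17 to -0.07. Flt1 alone was called without control replicate 2, without Prkcz replicate 2 and without Prkcz replicate 3.

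Prkci knockouts against controls is the contrast that the choice of genes used least, although it shares libraries with both others. The set was chosen partly on the same Prkci libraries, which can push its differences here above 0. Their direction and counts are therefore no independent test. None of the 10 genes was called by limma, where 0.0977% of all genes were called higher and 1.51% lower. At an unadjusted p below 0.05, 6 of the 10 were found, against 12.1% of all genes. Vwf had the largest log2 difference at 0.54 (SE 0.130, limma adjusted p = 0.0550), then Cd93 at 0.42 (SE 0.107, adjusted p = 0.0752) and Kdr at 0.32 (SE 0.110, adjusted p = 0.224). Ptprb was at 0.25 (SE 0.0892, adjusted p = 0.258), Flt1 at 0.18 (adjusted p = 0.266) and Eltd1 at 0.25 (adjusted p = 0.322).

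Those first 4 genes, Vwf, Cd93, Kdr and Ptprb, did not overlap, with all Prkci knockouts above all controls; 3.18% of all genes had that pattern. Tie1 (0.17, adjusted p = 0.530), Cdh5 (0.16, adjusted p = 0.507), Flt4 (0.07, adjusted p = 0.856) and Tek (0.02, adjusted p = 0.936) had the largest p. All 10 differences were above 0, with a median of 0.21 against 0.00 over all genes, a direction that the choice of genes favours. The direction of Tek was not stable: its log2 difference was -0.027 with the Pkcz f/f controls alone, -0.0078 without control replicate 2 and -0.037 without Prkci replicate 3. With the Pkcz f/f controls alone, Vwf was at 0.34 (limma adjusted p = 0.244), Eltd1 at 0.04, Tie1 at 0.09 and Flt4 at 0.02. Vwf was called in 4 of 20 alternative fits, without control replicate 3 among them, with limma adjusted p from 0.0174 to 0.244 over all 20. Cd93 was called in 2 of the 20 (0.0162 to 0.222).

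**Figure D2:**
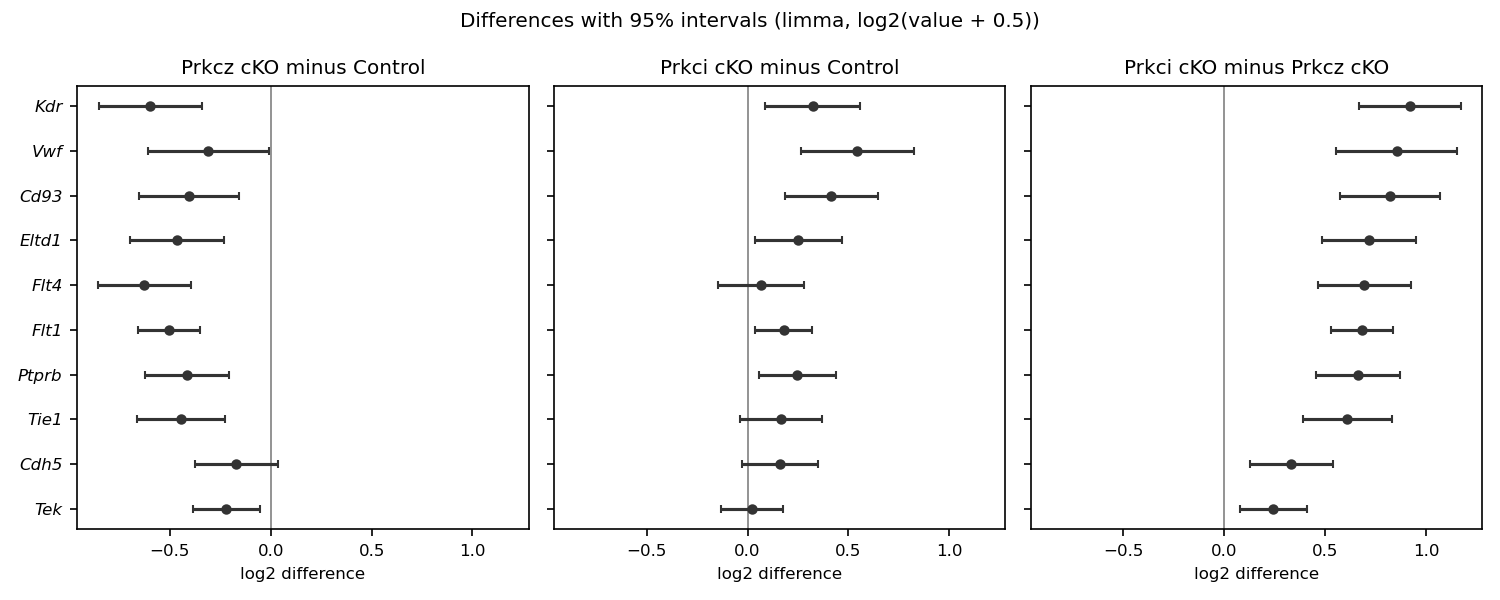
Log2 differences of the 10 genes in 3 comparisons, with points at the limma coefficient and lines for the unadjusted 95% interval. The comparisons with Prkcz knockouts (left and right panels) helped to choose the genes and are a description. The middle panel shares its libraries with them and is no independent test. All points lie above 0 for Prkci against Prkcz knockouts and for Prkci knockouts against controls, and below 0 for Prkcz knockouts against controls.

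The controls carried 2 genotype labels, and between these the counts of calls, of low p and of no overlap for the set lay near the shares over all genes. In sign the set leaned to f/f: 9 of the 10 log2 differences (f/f minus f/+) were above 0 and 1 was below. Their median was 0.10, against -0.0007 over all genes. Between the 2 Pkcz f/f and the 2 Pkcz f/+ controls, Eltd1 had a log2 difference of 0.41 with f/f higher (SE 0.0888, limma adjusted p = 0.134) and Vwf one of 0.40 (SE 0.151, adjusted p = 0.327). None of the 10 was called, where 0.154% of all genes were called in either direction, and 2 of 10 had an unadjusted p below 0.05 against 12.6% of all genes. Eltd1, Vwf and Tek did not overlap, with both f/f controls higher; 23.2% of all genes had that pattern. Kdr was nearly equal between the labels (21.8 in f/f and 21.7 in f/+, log2 difference 0.01). Some markers of other cells differed between the controls. All 8 oligodendrocyte genes had a difference below 0, with f/f lower (median log2 difference -0.37), and 7 of the 8 had an unadjusted p below 0.05. All 4 blood and perivascular myeloid genes tested were higher in f/f (median 0.81), each with an unadjusted p below 0.05. The share of all genes with such a p was 12.6%, as above, and no gene of either list was called. The summed level of 8 meningeal fibroblast genes was 124, 249, 302 and 234 in control replicates 1 to 4, and that of the 5 erythrocyte genes in the table was 156, 341, 386 and 360. Both sums were lowest in replicate 1 (f/+), and the meningeal sum of replicate 2 (f/+) lay between those of the f/f controls. Control replicate 1 was the lowest control for 7 of the 10 genes and replicate 3 the highest for 7. The part of these cells in the differences between controls was not tested.

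The rest of the pathway was taken from lists of related genes. Of 8 VEGF and angiopoietin ligands, 7 were tested and none was called in any of the 3 comparisons between groups; 1, 2 and 2 of the 7 had an unadjusted p below 0.05 for Prkci against Prkcz knockouts, Prkcz knockouts against controls and Prkci knockouts against controls, where 16.0%, 15.0% and 12.1% of all genes had one. Vegfa, the main ligand of Kdr and Flt1, was at 58.6 ± 2.38 in controls, 56.5 ± 7.59 in Prkci and 50.2 ± 6.85 in Prkcz knockouts (log2 difference of Prkcz knockouts from controls -0.23, limma adjusted p = 0.326). Angpt2, which endothelial cells release against Angpt1, was low at 1.35 ± 0.349, 2.09 ± 0.362 and 1.22 ± 0.210 (Prkci knockouts minus controls 0.50, limma adjusted p = 0.205).

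Of 10 coreceptors and signalling partners, 8 were tested. Gab1, a docking protein downstream of several receptor kinases, was lower than controls in both knockouts, by limma at -0.50 in Prkci (adjusted p = 0.0113) and -0.50 in Prkcz (adjusted p = 0.0372). It was at 47.5 ± 5.95 in controls, 33.4 ± 4.06 in Prkci and 33.3 ± 0.593 in Prkcz knockouts, with a difference between the knockouts of 0.00 (95% interval -0.21 to 0.21). The call was kept in 19 of 20 alternative fits for Prkci knockouts, and lost with the Pkcz f/f controls alone, and kept in 9 of 19 for Prkcz knockouts. Nrp1, a coreceptor of Kdr, was at 45.1 ± 3.96, 49.1 ± 3.39 and 37.9 ± 5.35 and was not called (Prkci against Prkcz knockouts 0.38, limma adjusted p = 0.125). Medians of the list were 0.02, -0.07 and -0.03 for Prkci against Prkcz knockouts, Prkcz knockouts against controls and Prkci knockouts against controls.

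Of 15 Notch and tip cell genes, 13 were tested, with medians of 0.23, -0.28 and 0.00 in the same order. Unc5b, a netrin receptor of sprouting vessels that other brain cells also carry, was lower in both knockouts: it was at 40.3 ± 7.62 in controls, 26.0 ± 2.95 in Prkci knockouts (limma adjusted p = 0.0129) and 24.7 ± 1.56 in Prkcz knockouts (adjusted p = 0.0265). These calls were kept in 18 of 20 and 12 of 19 alternative fits. Notch4, an endothelial Notch receptor, was at 6.58 ± 0.537, 7.46 ± 0.913 and 4.89 ± 0.431, with a difference between the knockouts of 0.56 (SE 0.109, limma adjusted p = 0.0521). No gene of the list was called between the knockouts, and 8 of 13 had an unadjusted p below 0.05 there, against 16.0% of all genes.

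All 18 endothelial transcription factors of a further list were tested. Their differences between Prkci and Prkcz knockouts were all above 0 (median 0.37), and those of Prkcz knockouts from controls all below 0 (median -0.21). Epas1 (HIF-2 alpha, a hypoxia-responsive factor) was higher in Prkci than in Prkcz knockouts, at 174 ± 14.1 against 133 ± 6.19 (log2 difference 0.38, limma adjusted p = 0.0303). Ets1, a factor of the ETS family whose binding to the promoters was not measured, was at 15.8 ± 0.981 against 11.4 ± 1.46 (0.47, limma adjusted p = 0.0450). Both were also called lower in Prkcz knockouts than in controls, Epas1 at -0.33 (adjusted p = 0.0443) and Ets1 at -0.45 (adjusted p = 0.0373). These were the 2 called genes of 18 in each of these contrasts, where 0.237% of all genes were called higher and 0.621% lower, and none was called for Prkci knockouts against controls. An unadjusted p below 0.05 was found for 11, 5 and 1 of the 18 in the 3 comparisons, against 16.0%, 15.0% and 12.1% of all genes. The calls were sensitive: between the knockouts Epas1 kept its call in 13 of 18 alternative fits and Ets1 in 8, and against controls they kept it in 5 and 9 of 19.

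The medians of the 28 other pan-endothelial genes had the same signs and were smaller: 0.31 between the knockouts, -0.25 for Prkcz knockouts against controls and 0.10 for Prkci knockouts against controls, against 0.69, -0.43 and 0.21 for the 10 genes. Of the 28, 2, 4 and 7 ran against the sign of the median. Plvap, a component of fenestrated vessels, did so in the first 2 of these comparisons. It was at 4.75 ± 0.454 in controls, 5.40 ± 0.350 in Prkci and 6.18 ± 0.415 in Prkcz knockouts (Prkcz knockouts minus controls 0.35, limma adjusted p = 0.135). Eng (endoglin, a TGF-beta coreceptor) was at 31.0 ± 1.93 in Prkci and 20.6 ± 0.723 in Prkcz knockouts (0.57, limma adjusted p = 0.0131). She, Gpr116 and Podxl were the other 3 called higher in Prkci than in Prkcz knockouts (0.58, 0.45 and 0.37; limma adjusted p = 0.0397, 0.0351 and 0.0450). Between the knockouts Eng kept its call in 16 of 18 alternative fits, Gpr116 in 11, She in 10 and Podxl in 9. Gpr116 was the 1 gene of the 28 called in Prkcz knockouts against controls (-0.40, adjusted p = 0.0454), a call kept in 6 of 19 alternatives. Against controls, no gene of the 28 was called in Prkci knockouts. An unadjusted p below 0.05 was found for 16, 17 and 4 of the 28 in the 3 comparisons, against 16.0%, 15.0% and 12.1% of all genes.

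When all 38 pan-endothelial genes were ordered by their difference between the knockouts, the set held ranks 1 to 7, with Tie1 at 10, Cdh5 at 20 and Tek at 27. This order restates how the genes were chosen. Outside the set, Nos3 (endothelial nitric oxide synthase) and Mmrn2 came next after Ptprb, both at 0.63 (limma adjusted p = 0.0567 and 0.0717). Pecam1 (0.31, adjusted p = 0.110) and Cldn5 (0.33, adjusted p = 0.0737), general markers of brain endothelium, were in the middle by limma and not called. S1pr1, Arhgef15 and Plvap were at 0.07, -0.06 and -0.18.

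**Figure D3:**
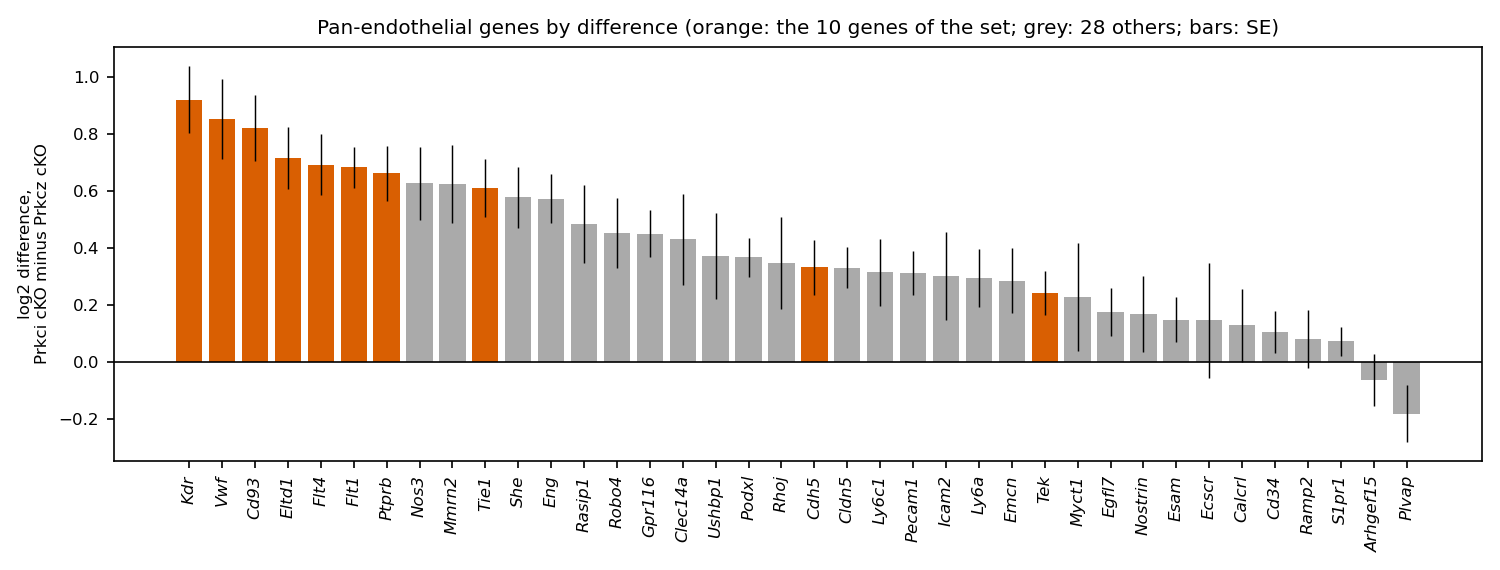
Log2 difference between Prkci and Prkcz knockouts for 38 pan-endothelial genes in descending order, coloured for the 10 genes of the set and grey for the 28 others, with SE bars. The set fills ranks 1 to 7, and Cdh5 and Tek stand at 20 and 27 among the grey bars.

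The summed level gave the same picture per library. The 10 genes summed to 202 to 243 in controls, 252 to 277 in Prkci knockouts and 148 to 174 in Prkcz knockouts. The 28 others summed to 544 to 563, 567 to 598 and 487 to 516. As a percentage of the 28, the set made up 39.4 ± 3.23% in controls (SD, n = 4), 44.5 ± 1.44% in Prkci knockouts (n = 4) and 32.6 ± 3.35% in Prkcz knockouts (n = 3). The Prkcz knockouts (28.7 to 34.6%) were below all controls (36.2 to 43.9%), and control replicate 3 lay within the range of the Prkci knockouts (42.8 to 46.3%). The largest values among the 28 were those of S1pr1 (158 ± 7.75 in controls) and Cd34 (96.4 ± 9.90). Between the knockouts these differed by 0.07 and 0.11 in log2, so the sum of the 28 leans on genes with small differences. The shares of the set follow from how the 10 genes were picked and have no test.

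Genes of neighbouring vessel cells were measured beside them. The 15 blood-brain barrier genes held no call in any of the 3 comparisons. Of the 15, 11, 9 and 0 had an unadjusted p below 0.05 for Prkci against Prkcz knockouts, Prkcz knockouts against controls and Prkci knockouts against controls, where 16.0%, 15.0% and 12.1% of all genes had one. Their medians were 0.23, -0.22 and 0.04, and they summed to 643 to 688 in controls, 673 to 700 in Prkci and 591 to 606 in Prkcz knockouts. The 16 pericyte and smooth muscle genes summed to 208 to 240, 209 to 241 and 175 to 192, so the Prkcz knockouts were again below all other libraries. Medians of the 15 tested were 0.32, -0.35 and 0.01 in the 3 comparisons. An unadjusted p below 0.05 was found for 7, 11 and 2 of the 15, against the shares of all genes just given. For Prkcz knockouts against controls 13 of the 15 were below 0 and 2 above. Rgs5, a pericyte marker, was at 37.6 ± 1.90 in controls, 39.0 ± 1.32 in Prkci and 28.7 ± 1.99 in Prkcz knockouts (Prkci against Prkcz 0.44, limma adjusted p = 0.00890). Myl9, of smooth muscle, was the other gene of 15 tested called between the knockouts (0.68, adjusted p = 0.0294). Rgs5 kept its call in 18 of 18 alternative fits and Myl9 in 12. Cspg4 of the same list, whose promoter drives the Cre, had higher means in both knockouts than in controls. It was at 17.4 ± 2.25 in controls, 22.8 ± 1.60 in Prkci and 21.5 ± 2.93 in Prkcz knockouts and was not called in any of the 3 comparisons.

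Mcam, an adhesion molecule of pericytes, smooth muscle and endothelium, was lower in both knockouts: 30.3 ± 4.50 in controls, 16.2 ± 2.80 in Prkci (-0.89, limma adjusted p = 0.00226) and 18.8 ± 1.55 in Prkcz knockouts (-0.67, adjusted p = 0.0353). Its call was kept in 20 of 20 and 10 of 19 alternative fits, and between the knockouts its log2 difference was -0.22 (adjusted p = 0.408), against 0.92 for Kdr. Rgs5 was also called lower in Prkcz knockouts than in controls (-0.39, adjusted p = 0.0197), in 14 of 19 alternatives. Of the 3 platelet genes in the table, of 6, Pf4 was below 1 in every library. They summed to 19.1 to 24.4 in controls, 18.5 to 24.9 in Prkci and 17.0 to 17.6 in Prkcz knockouts. Nearly all of this sum was Gp1bb (20.6 ± 2.97, 19.4 ± 2.86 and 16.0 ± 0.692), the 1 platelet gene tested, while Itga2b was at 0.670 ± 0.247, 0.718 ± 0.264 and 0.903 ± 0.424. The 5 of 9 erythrocyte genes in the table summed to 156 to 386, 229 to 466 and 185 to 322, and the 8 meningeal fibroblast genes to 124 to 302, 225 to 284 and 201 to 224, and for both lists Prkcz knockouts overlapped with controls. The 8 astrocyte genes summed to 5700 to 6290, 5736 to 6473 and 4338 to 5520, which put Prkcz knockouts below controls. Most of this sum was Slc1a2 (4172 ± 270, 4209 ± 271 and 3477 ± 617). From controls to Prkcz knockouts all 8 had a difference below 0, 2 of them with no overlap, against 6.72% of all genes. Aqp4 was the 1 astrocyte gene called there, where 0.621% of all genes were called lower. It was at 162 ± 15.7 in controls, 141 ± 12.8 in Prkci and 118 ± 11.1 in Prkcz knockouts, and its call was not followed over the alternative fits. The 8 neuron genes summed to 9012 to 9255, 9002 to 9718 and 9359 to 9725, which put Prkcz knockouts above controls. Most of that sum was Snap25, Syt1 and Slc17a7, and 6 of the 8 had a difference above 0 and 2 below. The 8 oligodendrocyte genes summed to 4535 to 6974 in controls, 2372 to 3898 in Prkci and 3262 to 3596 in Prkcz knockouts, and the 8 striatal genes, a check of where the punch was taken, to 719 to 1206, 356 to 665 and 728 to 1625. The part of these cells in the differences of the set was not tested.

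Within groups the 10 genes did not move as one. After subtracting group means, the correlation between 2 members over the 11 libraries had a median of 0.37 over 45 pairs and was above 0 in 35. The values share libraries, depth and scaling and are given as a description. Cd93 and Ptprb (0.89), Flt1 and Cd93 (0.83) and Cd93 and Vwf (0.81) were close, whereas Kdr and Tek ran opposite (-0.57). Prkcz replicate 3 shows this in 1 animal, being the lowest of its group for 7 genes and the highest for Tek and Tie1. This library had the lowest depth and also differed from its group in markers of other cells. Its striatal sum was 1625, against 728 and 748 in Prkcz replicates 1 and 2. Its astrocyte sum was 4338, against 5520 and 5457. The part of depth and of other cells in its values was not tested. Prkci replicate 3 was the highest of its group for 7 genes and the lowest for Kdr.

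**Figure D4:**
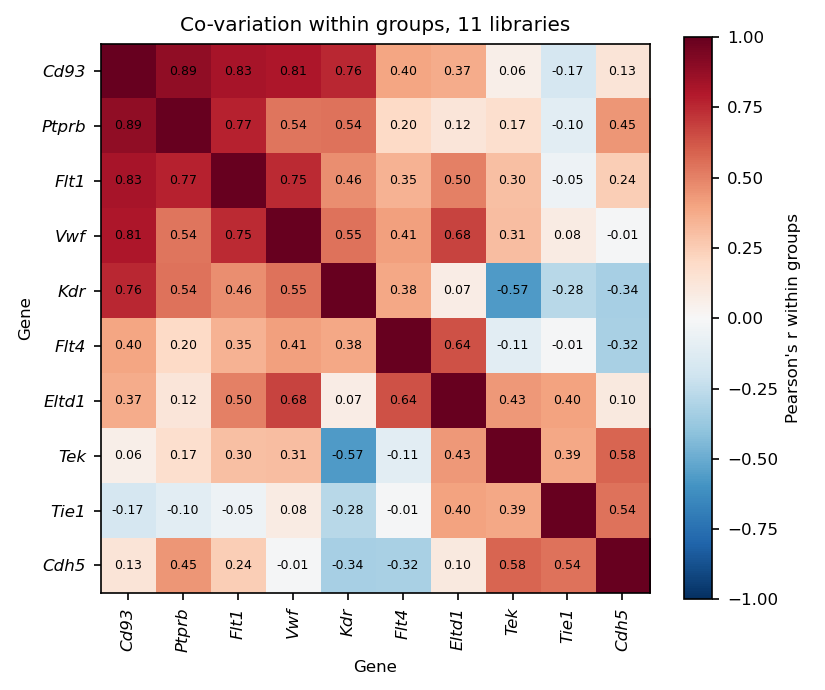
Pearson correlation between pairs of the 10 genes over 11 libraries after subtracting group means, as a colour from -1 to 1. Pairs with Cd93 reach 0.89, and the lowest value is that of Kdr with Tek at -0.57.

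The 8 genes outside the set whose values followed its mean most closely within groups were Tnfsf10 (r = 0.98), Fanca (0.94), Zfhx4, Nlgn1 and Ppfia2 (each 0.93), and Plxnc1, Fign and Rfx3 (each 0.92), over 11 libraries and out of 14320 genes compared. High values occur among so many genes over so few libraries. Tnfsf10, the death ligand TRAIL, was the closest of the 8 and had the largest difference between the knockouts at 0.45 (limma adjusted p = 0.200). None of the 8 was called in any of the 3 comparisons.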

How the data were processed

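RNA of cortex punches from 11 mice was sequenced as 1 library per animal, and the series text calls the replicates biological. The deposited table gives, for each of 16228 genes, the authors' normalised signal in every library, to 2 decimals. Per the submitters' processing notes, FastQC, Trim Galore, STAR, RSEM and edgeR were used with GRCm38; the scaling of libraries, the annotation and the strand setting are stated in no source used here. Of values under 0.5, 85.9% to 89.2% lay within 0.005 of a whole multiple of a step per library, so depth was estimated from the step but whole reads were not recovered and no count test was run.

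The filter kept the 14330 genes that reached 1 in 3 or more libraries. Values were taken as log2(value + 0.5), which understates the change of low genes, and fitted with limma 3.58.1 in R 4.3.3 (variance trend, 11 libraries, 8 residual degrees of freedom, no covariate). Two-sided p-values were adjusted over all genes (Benjamini-Hochberg), with 0.05 as the threshold. A second fit split the controls by genotype label. On simulated data made from the real means, log2 changes of 0.5 were recovered at 72%, 68% and 81% and changes of 1 at 97%, 98% and 98% for Prkci against Prkcz knockouts, Prkcz knockouts against controls and Prkci knockouts against controls, over 14321, 14310 and 14314 genes. False calls numbered 7, 6 and 9 in the same order. The changed genes were drawn from those at 1 or more in all 11 libraries, and the noise was independent between genes. These rates therefore do not cover scarcer genes or variation that genes share within a library. Gene positions and exon lengths are those of GENCODE on GRCm38.

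The genes of the set, the gene lists and the tests were chosen with earlier results of these data known. Genes named are all 10, up to 4 of each list with the smallest p and the 8 closest in pattern. Pecam1, Cldn5, Nos3, Mmrn2, S1pr1, Cd34, Arhgef15, Plvap, Gp1bb, Itga2b, Notch4, Angpt2, Slc1a2, Snap25, Syt1 and Slc17a7 are named where the text describes the order, role or sum of a list. Cspg4 is named as the source of the Cre promoter. Some of these genes were picked after their values were seen. Alternatives were the pseudocount, the filter, the scaling, the variance model, array weights, the groups in the fit, the replicate number as a block and leaving out each library.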

Additional observations from a re-analysis of the deposited data

Results flagged for a closer look

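Among 56 groups of 4 libraries checked (28 genes), 4 had 1 library far from the rest of its group, measured as the gap to its neighbour over the whole range; chance gives about 1 in 20. Flt1 was at 45.77 in control replicate 3, where the group median was 39.55. Vegfa was at 45.15 and Vegfb at 43.29 in 1 Prkci knockout each, where the group medians were 59.91 and 36.84. Angpt1 was at 4.94 in 1 control, where the group median was 8.52.

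The change from controls differed between Prkci and Prkcz knockouts past the limma threshold for 8 genes of the set, as already described and without a test of their own: Kdr 0.92, Vwf 0.85, Cd93 0.82, Eltd1 0.72, Flt4 0.69, Flt1 0.68, Ptprb 0.66 and Tie1 0.61 on the log2 scale. Outside the set it differed for Myl9 (0.68), She (0.58), Eng (0.57), Ets1 (0.47), Gpr116 (0.45), Rgs5 (0.44), Epas1 (0.38) and Podxl (0.37). Both knockouts are compared with the same controls, which drop out of this difference.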

How the results depend on the processing

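The median of the set kept its direction in the 3 comparisons between groups under every alternative tried. Between the knockouts, 43 genes were called in all; array weights gave 112 and the replicate block 73. In Prkcz knockouts against controls 93 genes were called, against 30 when the variance trend was left out, 28 when the third group was left out and 59 with the Pkcz f/f controls alone; of the set, 3 were called, 5 with array weights and 1 with only the 2 groups. In Prkci knockouts against controls 230 genes were called, 346 with array weights and 132 with the Pkcz f/f controls alone; of the set, 0 were called, 2 with array weights or with only the 2 groups, and 1 (Vwf) when libraries were rescaled without Rn45s and mitochondrial genes.

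Leaving out each library in turn gave 10 to 151 genes and 3 to 8 of the set for Prkci against Prkcz knockouts (median 0.66 to 0.73), 12 to 76 and 1 to 3 for Prkcz knockouts against controls (-0.50 to -0.37), 94 to 211 and 0 to 1 for Prkci knockouts against controls (0.16 to 0.26), and 5 to 40 and 0 to 0 for the control labels (0.02 to 0.18), where the lone library of a label is assumed to vary like the others. In Prkci knockouts against controls Tek was at -0.027 with the Pkcz f/f controls alone and at -0.037 to 0.057 when 1 library was left out, with -0.0078 without control replicate 2. Between control labels, 4 genes changed sign when 1 control was left out: Kdr ran from -0.12 to 0.13, Cdh5 from -0.13 to 0.14, Cd93 from -0.031 to 0.23 and Ptprb from -0.20 to 0.11. The cause was not tested. Counting called genes only, set members lost their call in 15 of 143 alternatives between the knockouts and other named genes in 47 of 144. Against controls in Prkcz knockouts these were 16 of 56 and 68 of 133, without Aqp4, which was not followed. For the set, chosen partly on these comparisons, the tallies are a description.

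Whether replicate numbers pair the animals was not settled. After subtracting group means, same-numbered libraries correlated at -0.19 to 0.20 in 10 pairs, 5 over 0.1. Of 11 libraries, 6 correlated best with a library of their own number. With the replicate block, 8, 3 and 0 of the set were called; in Prkcz knockouts against controls Flt4 lost its call (adjusted p = 0.0629) and Tie1 gained one (0.0477). Depth limits Flt4 most.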
